A study of Mus musculus with 14 samples.

Results

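The hepatocyte growth factor (HGF) system was followed in mouse satellite cells, the stem cells of skeletal muscle, through the ligand gene Hgf, the receptor gene Met, the activating proteases Hgfac and St14, and the protease inhibitors Spint1 and Spint2. The members were all non-control probes that the array design assigns to these 6 genes, 8 of 55681 probes. A gene was tested where at least 1 of its probes was well above background on 2 or more arrays of a group, which held for all 6 members among 32863 genes and for 7 of the 8 probes. RNA of sorted cells was measured on 14 single-colour arrays, 1 sample each. The C57BL/6 mice were Young (2, 2 and 3 months, n = 3), Old (22, 23 and 24 months, n = 3) or Geriatric (30 and 29 months, n = 2, numbered 1 and 3), and SAMP8, a senescence-prone strain, was set against the senescence-resistant SAMR1 (12 months, n = 3 each). The labels name no treatment, and all mice are labelled male. Sorting had kept cells with integrin alpha 7 and CD34 on the surface and removed those with Sca1, CD11b, CD45 or CD31, and their cDNA was amplified before labelling. The labels call the samples biological replicates and do not say whether animals were pooled.

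HGF is secreted as an inactive single chain that binds heparan sulphate in the matrix around muscle fibres. Serine proteases, among them HGF activator (Hgfac) and matriptase (St14), cleave it to the form that activates the receptor tyrosine kinase MET, and the Kunitz inhibitors HAI-1 (Spint1) and HAI-2 (Spint2) hold these proteases in check. In injured muscle, active HGF is known for bringing quiescent satellite cells into the cell cycle.

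The probes that carry the results for the ligand and the receptor lie on the plus strand of build mm9, that of Hgf at chr5:16124829-16124888 and that of Met at chr6:17503299-17503358, and the receptor's probe was spotted 10 times per array. The array design assigns each probe to a transcript of its gene, and gene models of mm9, which would place it in an exon or UTR, were not used here. Spint2 had a pair of probes on the minus strand that gave different patterns, at chr7:30066532-30066591 (brighter) and chr7:30041332-30041381 (dimmer). The array design assigns them to different transcripts of the gene, and whether this bears on the patterns was not tested. The Met probe is shown because the receptor is read from this sequence alone, and the brighter Spint2 probe because it stands for the gene in the tests; neither has a part in capitals. The Hgf line gives the 250 bases before the gene's first annotated start at chr5:16553245-16553494 (plus strand, RefSeq, GRCm38.p6), shown because Hgf was the member that passed the test, with matches to the E-box CANNTG in capitals.
Met probe: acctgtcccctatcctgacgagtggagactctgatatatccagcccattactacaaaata
Spint2 probe: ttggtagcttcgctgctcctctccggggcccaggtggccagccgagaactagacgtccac
Hgf upstream: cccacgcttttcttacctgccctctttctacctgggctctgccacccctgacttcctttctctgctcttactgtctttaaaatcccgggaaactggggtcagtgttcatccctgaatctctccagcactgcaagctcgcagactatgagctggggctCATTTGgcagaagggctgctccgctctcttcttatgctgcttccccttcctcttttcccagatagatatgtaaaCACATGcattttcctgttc

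The E-box, the kind of site that basic helix-loop-helix factors such as MYOD1 bind, occurred 2 times in the Hgf window, beginning 93 and 19 bases before the start. It was present in 66.2% of all 32851 RefSeq windows of 250 bases. The letters of AP-1 (TGANTCA), the GC box (GGGCGG), the CCAAT box (CCAAT) and the TATA box (TATAAA), searched on both strands, were not in the Hgf window, and they occurred in 6.75%, 32.7%, 33.8% and 12.4% of windows. The Hgf window held 50.8% G and C, against a median of 52.4% over all windows. Promoter windows were listed for 5 of the 6 members, all but St14.

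Between 77.11% and 88.76% of probes were well above background per array and no spot was saturated, and Geriatric 1 had 969 outlier spots against 94 to 255 on the other arrays. Satellite cell identity was read from 15 markers, all of them above background on every array, with median levels between 2.48 and 3.36. Levels are log2 signals relative to the array's 75th percentile, so 0 is that percentile and each unit is a doubling. Sex-linked transcripts divided the arrays against their labels. Xist stood at 5.59 to 5.86 on Young and 5.08 to 5.55 on Old arrays and was not well above background on either Geriatric array, whereas Ddx3y, Uty and Kdm5d of the Y chromosome were above background on every Geriatric, SAMP8 and SAMR1 array and on no Young or Old one. Not all of these transcripts divided the arrays so: Eif2s3y, also of the Y chromosome, was above background on all arrays, at −0.64 and −0.23 in Geriatric, against −1.81 to −1.13 in Young and −1.85 to −0.86 in Old cells, and Xist was above background, at a mean of −4.14, on the 3 SAMP8 arrays and on 1 of 3 SAMR1 arrays (−6.76 over all 3). Every comparison of Geriatric with Young or Old cells crosses this division, so in these comparisons age and the sex-linked difference cannot be told apart. Old versus Young and SAMP8 versus SAMR1 do not cross it.

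Hgf, the ligand, was the member that changed: it rose in Geriatric cells against both younger ages and passed no test between the strains. Its level was −1.14 and −0.08 on the 2 Geriatric arrays, against −4.41, −5.33 and −3.99 on the Young arrays. On the Old arrays it was −3.43, −5.25 and −2.54, the middle one not well above background. Both Geriatric arrays lay above every Young and every Old array, and the Old and Young arrays overlapped. As shares of the array's 75th percentile, the Geriatric signals were 45.3% and 94.9%, and the Young signals ran from 2.48% to 6.31%.

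In the limma fit over all genes, Hgf was higher by 3.97 ± 0.68 in Geriatric than in Young cells (log2, SE, n = 2 against 3; 95% interval 2.48 to 5.45), a 15.6-fold difference with an adjusted p of 0.00821 after Benjamini-Hochberg correction. Hgf was 1 of 6 members past the threshold of 0.05 in this comparison, in which 4.19% of all genes passed and 44.2% showed no overlap between the groups. Against Old cells the Geriatric level was higher by 3.13 ± 0.68 (interval 1.64 to 4.61, 8.75-fold, adjusted p = 0.00957). Hgf was again the 1 member of 6 to pass, where 20% of all genes passed and 54.9% showed no overlap between the groups. Of the genes that passed, 37.7% were higher in Geriatric than in Young and 27.6% higher in Geriatric than in Old cells, shares of 44.8% and 46.9% with quantile normalization and of 49.7% and 42.9% in the authors' value table. Both folds depended on how background was removed: with the normexp correction the differences were 2.51 and 2.06, still past the threshold (adjusted p = 0.00157 and 0.00139). Geriatric replicate 3 decided both calls, since without it the differences were 3.43 (adjusted p = 0.0949) and 2.59 (adjusted p = 0.101).

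All Geriatric arrays lay on slide 2, beside 1 Young and 2 Old arrays. With slide as a block, Hgf was higher by 3.68 against Young (adjusted p = 0.0335) and by 2.98 against Old cells (adjusted p = 0.0161). Within slide 2 alone the differences were 4.72 (adjusted p = 0.138) and 2.37 (adjusted p = 0.087). Neither passed within the slide, and a fit of the Geriatric and Old arrays alone also ended the call against Old cells (adjusted p = 0.0824).

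In Old cells Hgf averaged −3.74 ± 1.38, against −4.58 ± 0.69 in Young cells (SD, n = 3 each). The difference of 0.84 had an interval of −0.49 to 2.16 and did not pass the test (adjusted p = 0.536). In limma 0 of 6 members passed in this comparison, with 1 (Met) at an unadjusted p under 0.05, and 1.44% of all genes passed, 83.3% of them higher in Old cells (67.7% with quantile normalization and 67% with median scaling). The Hgf difference ran in opposite directions within the slides, −1.05 within slide 1 (1 Old array, not above background, against 2 Young arrays) and 2.35 within slide 2 (2 Old arrays against 1 Young array).

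Hgf was bright in both 12-month strains. It stood at −0.09, −0.02 and 0.79 in SAMP8, against −0.73, −0.27 and −0.27 in SAMR1. All SAMP8 arrays lay above all SAMR1 arrays, and 13.1% of all genes showed no overlap between the strains. The difference of 0.65 (interval −0.68 to 1.98) did not pass the test (adjusted p = 0.9). In limma 0 of 6 members passed between the strains, with 0 at an unadjusted p under 0.05, and 0.453% of all genes passed. Ordered by mean level, SAMP8 was followed by SAMR1, Geriatric, Old and Young. In that order SAMR1 and Geriatric arrays overlapped, as did Old and Young arrays, and the step of 3.13 between Geriatric and Old was the one that passed a test. The Hgf levels thus parted the arrays at the same place as the sex-linked transcripts, with −1.14 to 0.79 on Geriatric, SAMP8 and SAMR1 arrays and −5.33 to −2.54 on Young and Old arrays. The part of the sex-linked difference in the Hgf levels was not tested.

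**Figure D1:**
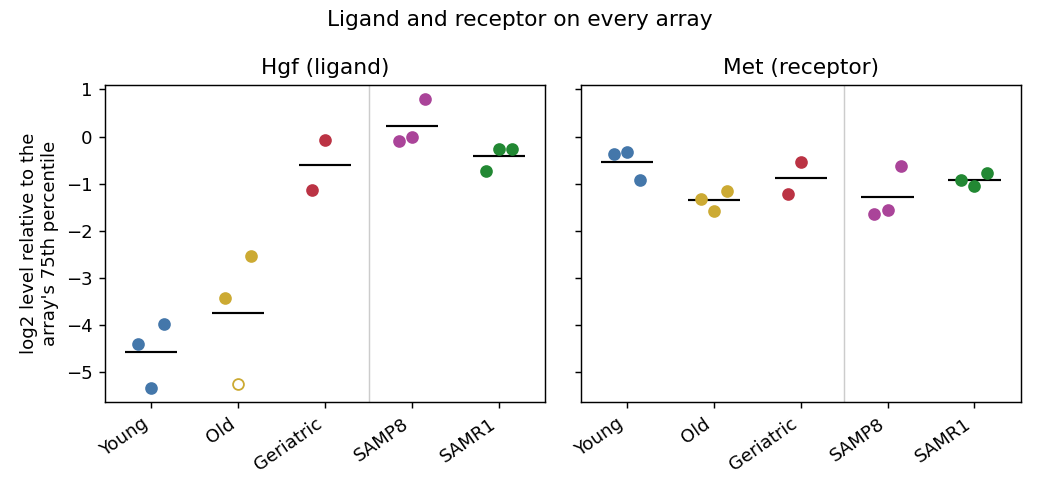
Log2 level of Hgf (left) and Met (right) relative to each array's 75th percentile, 1 point per array, with the group mean as a line. Open points were not well above background. The Geriatric Hgf points (−1.14 and −0.08) sit above all Young and Old points, while the Met points of all groups fall between −1.65 and −0.33.

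**Figure D2:**
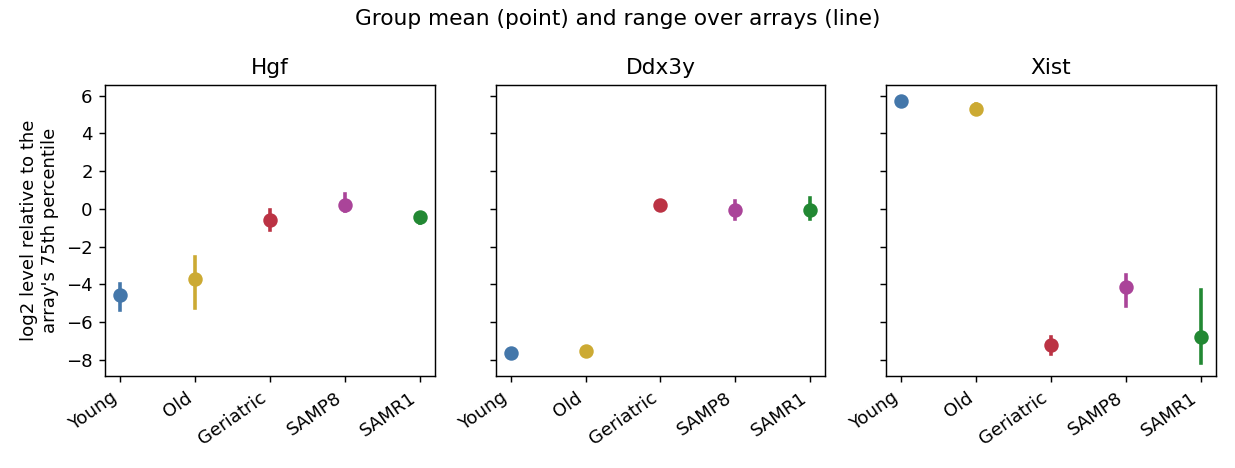
Group means (points) and ranges over arrays (lines) of the log2 level of Hgf, of the Y-linked Ddx3y and of Xist. Ddx3y parts Geriatric, SAMP8 and SAMR1 from Young and Old, as the Hgf levels do, and Xist parts them the other way round.

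The direct test of whether the Geriatric versus Young change differed from the SAMP8 versus SAMR1 difference gave 3.31 ± 0.91 for Hgf (interval 1.32 to 5.31), which did not pass after adjustment over all genes (adjusted p = 0.108). In this test 0 of 6 members and 1.73% of all genes passed in limma, and 2 members, Hgf and St14, had an unadjusted p under 0.05 (0.00364 and 0.0169). It passed for Hgf where the Old arrays were not in the fit (adjusted p = 0.0357) and where Old replicate 2 was left out (adjusted p = 0.0335).

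Met, the receptor tyrosine kinase, was detected on all 14 arrays and passed no test. Its level was −1.32, −1.57 and −1.15 in Old cells, against −0.36, −0.33 and −0.92 in Young cells. Every Old array lay below every Young array, which was so in one direction or the other for 21.5% of all genes. The difference was −0.81 ± 0.30 (SE, n = 3 each; interval −1.47 to −0.15), with an unadjusted p of 0.0208 and an adjusted p of 0.204. It was −0.93 within slide 1 and −0.90 within slide 2.

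On the Geriatric arrays Met stood at −1.21 and −0.53, a range that overlapped the Young arrays. The Geriatric level differed by −0.33 from Young (interval −1.07 to 0.41; adjusted p = 0.587) and by 0.48 from Old cells (interval −0.26 to 1.22; adjusted p = 0.327). In SAMP8 Met was −1.65, −1.56 and −0.62, against −0.92, −1.06 and −0.78 in SAMR1. Replicate 3 of SAMP8 lay above all SAMR1 arrays and the other two below, and the difference of −0.36 had an interval of −1.02 to 0.30 (adjusted p = 0.874). Every neighbouring pair of groups in the order Young, Geriatric, SAMR1, SAMP8 and Old overlapped in its Met levels.

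**Figure D3:**
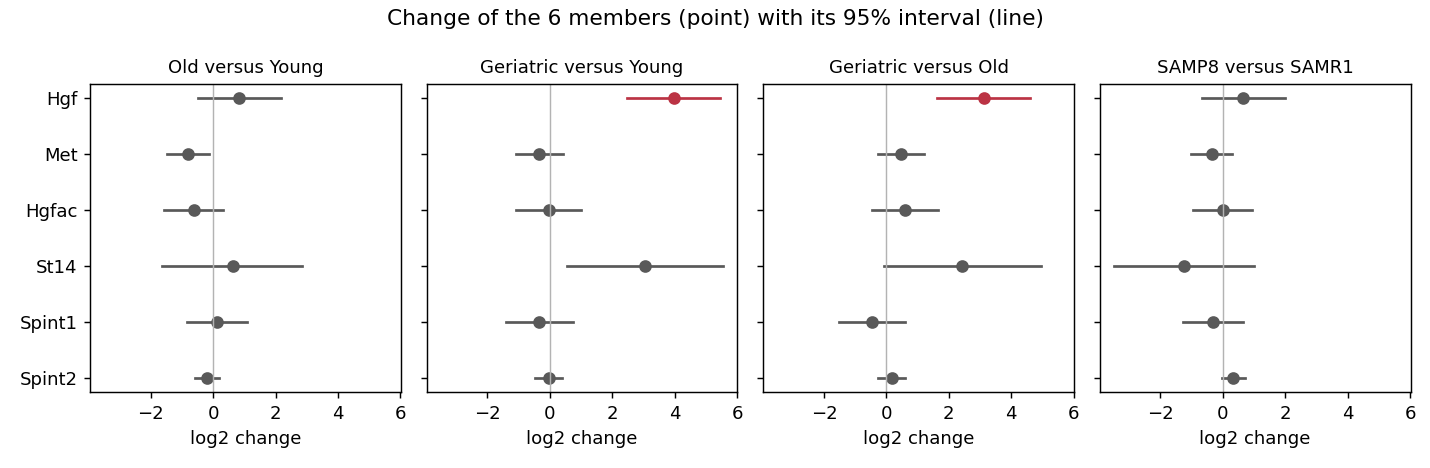
Log2 change of each member in the 4 comparisons (point) with its 95% interval from limma (line); red marks an adjusted p under 0.05. Hgf in both Geriatric comparisons (3.97 and 3.13) is red, and St14 has the widest intervals.

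Hgfac, the gene of the serum protease HGF activator, was above background on all 14 arrays and passed no test. Its mean level was −1.16 ± 0.80 in Young, −1.79 ± 0.23 in Old (SD, n = 3 each) and −1.20 ± 1.06 in Geriatric cells (SD, n = 2). The 2 Geriatric arrays differed from each other by more than any group means did, at −0.45 and −1.95. SAMP8 averaged −1.35 ± 0.24 and SAMR1 −1.34 ± 0.32 (SD, n = 3 each). Its 4 differences ran from −0.63 (Old versus Young) to 0.59 (Geriatric versus Old), with adjusted p-values between 0.394 and 0.998.

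St14, the gene of the membrane protease matriptase, was dim, with 8 of 14 arrays well above background. It was above background on both Geriatric arrays, at −3.15 and −3.28, against none of the 3 Young arrays, which read −5.75, −7.23 and −5.83. The Young level is therefore only a bound, and Geriatric cells averaged at least 4.82-fold more signal, a point estimate. The fitted difference of 3.05 had an interval of 0.54 to 5.56 and did not pass (adjusted p of the fit 0.155, unadjusted 0.0214). The 4.82-fold bound holds for this background correction alone: the log2 difference was 0.86 with normexp and 1.11 in the authors' value table. The Old arrays read −4.97, −4.40 and −7.58, the last not above background. The Geriatric arrays lay above all of them by a mean of 2.43 (interval −0.08 to 4.95; adjusted p = 0.15), and 54.9% of all genes showed no overlap between these groups.

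Some settings changed this call. St14 passed the Geriatric versus Old test with quantile normalization (3.25; adjusted p = 0.0348) and in the authors' own value table, which also has another background correction (1.12; adjusted p = 0.0266), but not with median scaling (2.72; adjusted p = 0.0985) or with normexp (0.67; adjusted p = 0.162). In SAMP8 St14 was above background on 1 of 3 arrays, at −3.31, with −5.52 and −7.02 on the others, against −3.16, −3.41 and −5.55 on the SAMR1 arrays, all above background. The strains overlapped, with a difference of −1.24 (interval −3.49 to 1; adjusted p = 0.867).

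Spint1, the gene of the transmembrane inhibitor HAI-1, was read from a pair of probes on chromosome 2 of mm9 that overlap at their ends, at chr2:119074872-119074931 and chr2:119074929-119074988. The first was above background on all 14 arrays and stood for the gene. The second was above background on 2 arrays, 1 Geriatric and 1 SAMP8, and was not tested. Its mean level over all arrays was −6.3, against 0.37 for the first, although the array design assigns both to the same transcript. The level of Spint1 therefore rests on the first probe, and the second does not bear it out. On the first probe the levels were 0.78 and −0.31 in Geriatric cells, against 0.96, −0.12 and 0.90 in Young and 0.51, 1.26 and 0.32 in Old cells, so all 3 ages overlapped. SAMP8 read −0.06, 0.70 and −0.67, against 0.42, −0.06 and 0.54 in SAMR1. The 4 differences ran from −0.46 to 0.12 and had adjusted p-values between 0.519 and 0.96.

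Spint2, the gene of the broader inhibitor HAI-2, varied least of the members on its brighter probe. Its levels there were −0.60 and −0.64 in Geriatric cells, against −0.60, −0.65 and −0.51 in Young and −0.90, −0.64 and −0.82 in Old cells. The Geriatric versus Young difference of −0.03 had an interval of −0.46 to 0.39, the narrowest of the members in that comparison. The Geriatric arrays did not overlap the Old ones, which was so for 54.9% of all genes. The difference was 0.17 (interval −0.25 to 0.59, adjusted p = 0.555). SAMP8 read −0.97, −0.73 and −0.80, against −1.22, −1.39 and −0.92 in SAMR1, a difference of 0.34 (interval −0.03 to 0.72; adjusted p = 0.66).

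The dimmer Spint2 probe gave another picture. It stood at −0.12, −1.06 and −0.58 in SAMP8, against −1.62, −1.59 and −0.73 in SAMR1. In the C57BL/6 groups it ran from −7.67 to −1.06, with 1 Old and 1 Young array not above background and the Geriatric arrays at −4.11 and −4.34. The Old arrays alone spanned that whole range (−2.38, −1.06 and −7.67). Tested as a probe of its own, it passed no comparison (adjusted p between 0.78 and 0.968 over the 4). Of all probes tested this way, 1.24% passed in Old versus Young, 3.54% in Geriatric versus Young, 18% in Geriatric versus Old and 0.421% in SAMP8 versus SAMR1. A mean of both Spint2 probes turned the sign of the 3 comparisons by age.

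**Figure D4:**
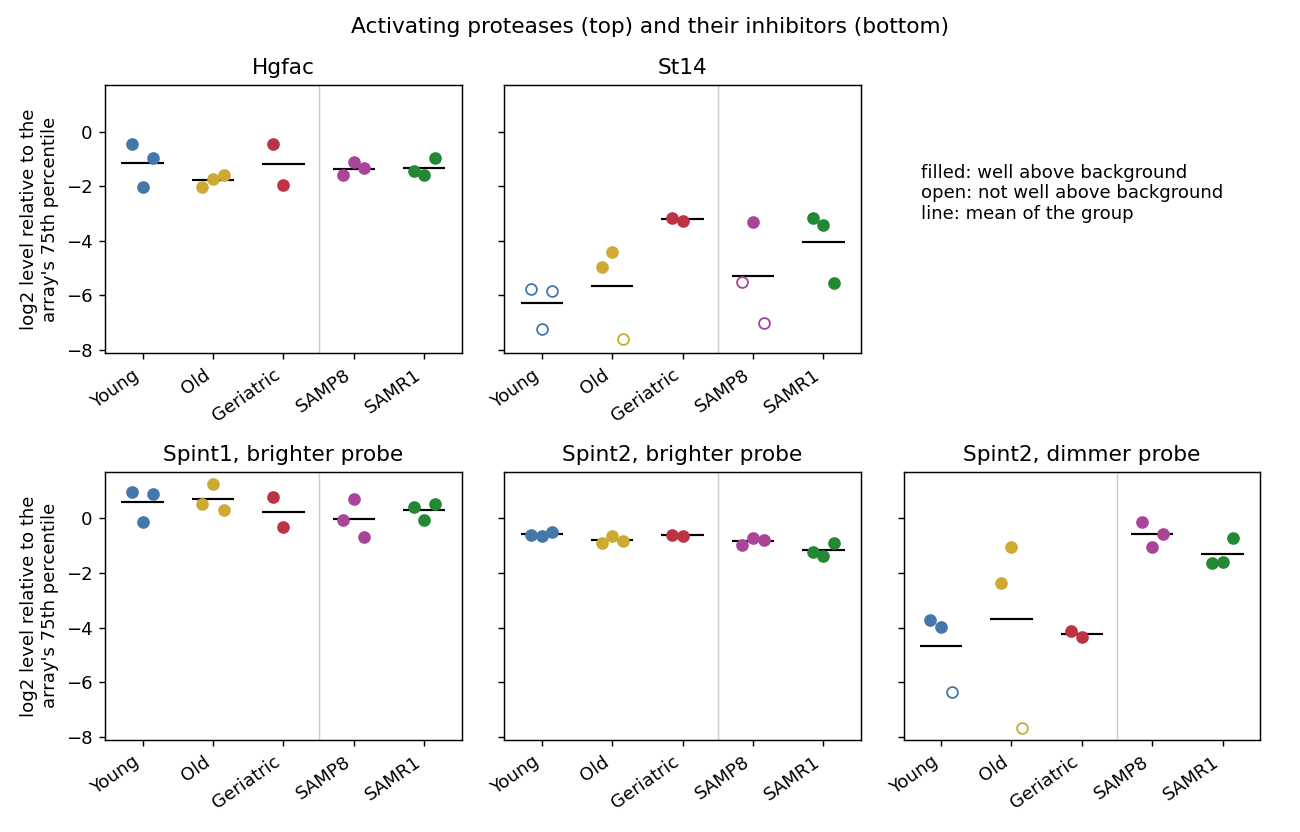
Log2 level of Hgfac, St14, the brighter Spint1 probe and both Spint2 probes relative to each array's 75th percentile, with group means as lines. Each array is 1 point, open where not well above background. St14 is filled on both Geriatric arrays and open on all Young arrays, and the dimmer Spint2 probe is high on the SAMP8 and SAMR1 arrays.

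Across the 14 arrays the members did not move as one. The Pearson correlations of Hgf were −0.14 with Met, 0.10 with Hgfac, 0.36 with St14, −0.54 with Spint1 and −0.48 with Spint2, a description of arrays that share groups, slides and amplification. The median change of the members was −0.04 in Old versus Young cells, against 0.061 over all genes, and −0.04 in Geriatric versus Young cells, against −0.179. It was 0.54 in Geriatric versus Old cells, against −0.224 over all genes, and −0.16 in SAMP8 versus SAMR1, against 0.008. The medians over all genes depend on the scaling. In Geriatric versus Old cells that median was 0.03 with quantile normalization and 0.06 with median scaling.

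The other genes of the pathway were read from 7 lists with 106 tested genes. In Geriatric against Young cells 5 of them rose and 1 fell, beside 1.58% and 2.61% of all genes. In Geriatric against Old cells 11 rose and 3 fell, beside 5.52% and 14.4% of all genes. In Old against Young cells 1 rose and 2 fell, beside 1.2% and 0.24% of all genes. In SAMP8 against SAMR1 the lowest adjusted p of the lists was 0.223. Within slide 2 alone, where 1 Young and 2 Old arrays are left, of the named calls in both Geriatric comparisons that of Serpine2 against Old cells held (2.11). The others lost their calls with differences of like size for the leading genes, such as 3.38 for Serpine2, 2.30 for Timp3 and 2.28 for Nos1 against Young cells and 2.04 for Nos1 against Old cells. Among the genes that release or bind HGF in the matrix, 2 of 16 rose in Geriatric against Young cells. Nos1, the neuronal nitric oxide synthase, whose product is known to favour the release of HGF from muscle matrix, averaged 0.26 ± 0.81 in Geriatric (SD, n = 2), against −2.25 ± 0.36 in Young and −1.92 ± 0.61 in Old cells (SD, n = 3 each). It was higher by 2.51 ± 0.43 (SE, adjusted p = 0.00807) against Young and by 2.18 ± 0.43 (adjusted p = 0.00599) against Old cells. Geriatric replicate 1 decided both calls, and without it the differences were 1.94 (adjusted p = 0.0806) and 1.61 (adjusted p = 0.059).

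Unlike Hgf, Nos1 was not high in the 12-month strains, at −3.41 ± 0.38 in SAMP8 and −2.23 ± 0.34 in SAMR1 (SD, n = 3 each). Vtn, the matrix protein vitronectin, rose by 1.12 in Geriatric against Young cells (adjusted p = 0.0205), a call lost without Geriatric replicate 3 (0.87; adjusted p = 0.196) and without Young replicate 1 or 3 (adjusted p = 0.0554 and 0.0767). Fn1, which encodes fibronectin, fell by 1.71 in Old against Young cells (adjusted p = 0.0219) and was the 1 of 16 genes of this list to pass there. Its adjusted p was between 0.0557 and 0.0971 without Young replicate 1 or 2 or Old replicate 1 or 2.

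Of 9 listed serpins and other protease inhibitors, not all of them inhibitors of the activating serine proteases, 7 were tested. In Geriatric against Young cells 2 of the 7 rose. Serpine2, a secreted inhibitor of thrombin and plasminogen activators, was 1.05 on both Geriatric arrays, against −2.32 to −1.50 in Young and −1.31 to −1.06 in Old cells. Its mean level was 0.28 in SAMP8 and 0.41 in SAMR1, also above the Young and Old arrays. It rose by 2.93 ± 0.26 against Young (adjusted p = 0.000216) and by 2.20 ± 0.26 against Old cells (adjusted p = 0.000393), the last in 27 of 27 alternative settings. Timp3, an inhibitor of metalloproteases, rose by 1.51 in Old against Young cells (adjusted p = 0.0103) and by 2.54 in Geriatric against Young cells (adjusted p = 0.000321), and by 1.03 in Geriatric against Old cells (adjusted p = 0.0141, but 0.133 without Geriatric replicate 3). Timp3 averaged 2.05 in Geriatric cells, 2.76 in SAMP8 and 3.15 in SAMR1. Neither Serpine2 nor Timp3 was thus high in Geriatric cells alone. A2m, a broad protease trap, fell by 1.47 in Geriatric against Old cells (adjusted p = 0.0381), a call lost in 13 of 27 alternative settings, among them quantile normalization (−0.85) and leaving out either Geriatric array, Young replicate 3, Old replicate 2 or 3 or SAMR1 replicate 3.

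Of 12 tested activators of HGF or of its relative MSP other than the members, 0 passed in limma in Geriatric against Young cells, where the lowest adjusted p was 0.138. Against Old cells 2 fell in the Geriatric group: F11, coagulation factor XI, by 2.62 (adjusted p = 0.00957, but 0.0553 and 0.0603 without either Geriatric array), and Plg, the gene of plasminogen (adjusted p = 0.0304). The Geriatric value of Plg came from 1 array, where it was not well above background, since its spot on the other had been left out as an outlier, so no fold is given. The call for Plg was lost with quantile normalization (adjusted p = 0.0965) and without Old replicate 1 or 2 (adjusted p = 0.0612 and 0.0678).

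Downstream of the receptor, 0 of 31 adaptors and signal transducers passed in limma in Geriatric against Young cells (lowest adjusted p 0.0665). In Geriatric against Old cells 7 of 31 rose, beside 5.52% of all genes. The list median there was 0.48 against −0.224 over all genes, and the latter depends on the scaling. Gab1, the docking protein that MET phosphorylates, rose by 1.60 ± 0.32 there (adjusted p = 0.0067) and Rap1a, a small GTPase, by 1.07 (adjusted p = 0.0202). The call of Rap1a was lost without either Geriatric array (adjusted p = 0.124 and 0.0667) and without Old replicate 1 (adjusted p = 0.0633). Gab1, whose call was lost in 1 of 27 settings, averaged 2.27 in Geriatric, against 0.66 in Old and 1.09 in Young cells. In SAMP8 and SAMR1 Gab1 averaged 1.99 and 1.80. Rap1a averaged −1.59 in Geriatric cells, −1.47 in SAMP8 and −1.70 in SAMR1. Neither gene was thus high in Geriatric cells alone.

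Among the brakes on MET, Dusp6, a phosphatase that inactivates ERK, was the 1 of 14 to pass, and it fell by 1.32 in Geriatric (adjusted p = 0.0125) and by 1.18 in Old cells (adjusted p = 0.0269), both against Young cells. Its call in Geriatric cells was lost without either Geriatric array (adjusted p = 0.0763 and 0.0933), and the call in Old cells without Young replicate 1 or 2 or Old replicate 1 or 2 (adjusted p between 0.0664 and 0.104). Axl, a receptor kinase of another family that can act with MET, rose by 1.30 in Geriatric against Young cells (adjusted p = 0.0259), as 1 of 15 co-receptors and relatives, a call lost without either Geriatric array (adjusted p = 0.112 and 0.162) and without Young replicate 1 or 3 (adjusted p = 0.0502 and 0.0973). Of 11 genes of mTORC1 and the alert state that HGF can induce, Tsc1, a brake on mTORC1, rose by 0.98 in Geriatric against Old cells (adjusted p = 0.013), a call lost without either Geriatric array (adjusted p = 0.0575 and 0.0931). The lowest adjusted p of this list in the other comparisons was 0.0549, 0.275 and 0.681. Axl averaged 1.36 in Geriatric cells, 1.7 in SAMP8 and 1.64 in SAMR1, and Tsc1 averaged 0.81, 0.64 and 0.47. Both were thus not high in Geriatric cells alone. Dusp6, at 0.28 in Geriatric cells, averaged 1.16 in SAMP8 and 1.4 in SAMR1.

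**Figure D5:**
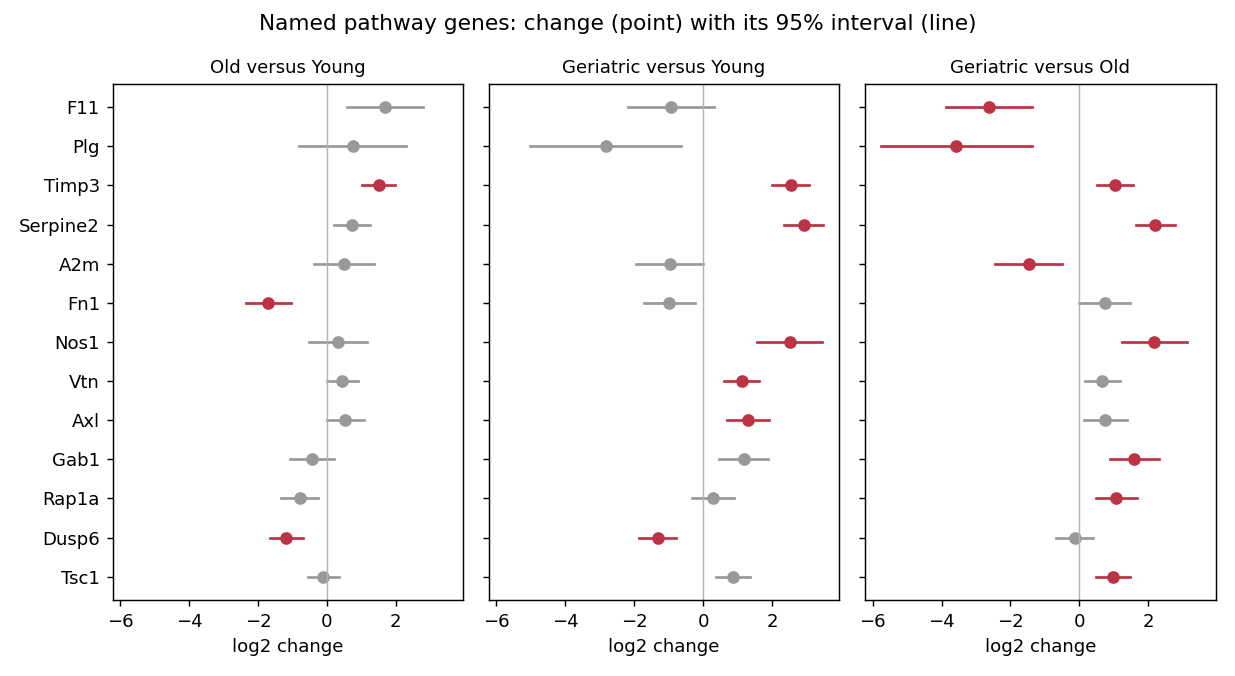
Log2 change (point) with its 95% interval (line) of the 13 named pathway genes in the 3 comparisons by age; red marks an adjusted p under 0.05. Nos1, Serpine2 and Timp3 are red in both Geriatric comparisons, and Plg is drawn at its fitted value, which rests on 1 Geriatric array with a signal not well above background.

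The genes whose pattern over the 14 arrays was most like that of Hgf, among 15564 genes with a symbol, were Arhgap6 (Pearson r = 0.956), Fbln5 (0.953), Plcl1 (0.948), Adam17 (0.943) and Spata13 (0.942). Within groups, as deviations from the group means, r was 0.722, 0.52, 0.733, 0.815 and 0.291 for these genes, so for Spata13 little of the likeness lay within groups. Fbln5, the elastic fibre protein fibulin-5, averaged −2.29 in Geriatric, against −4.80 in Young and −4.43 in Old cells, and −1.45 in SAMP8 against −1.75 in SAMR1. For Met the most similar genes were Gde1 (0.9), D10Wsu102e (0.899), Hspd1 (0.891), Eps8l3 (0.872) and P4hb (0.865). The first of the other members' lists was Zfyve9 for Hgfac (0.835), Ppcdc for St14 (0.847), Prss28 for Spint1 (0.957) and Ttll13 for Spint2 (0.926).

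Mesenchymal cells are known as a source of HGF in muscle. They carry Sca1, and the sort removed Sca1-positive cells. Over the 14 tested of 15 mesenchymal markers the median level was −0.96 and −0.54 on the Geriatric arrays, against −0.87 to −0.39 in Young and −1.08 to −0.52 in Old cells. The median of the changes of the single markers was 0.33 in Geriatric against Young cells, beside −0.179 over all genes. Against Old cells it was 0.45, beside −0.224, and both medians over all genes depend on the scaling. In Geriatric against Young cells 1 of the 14 rose, Dpt by 1.48 (adjusted p = 0.0205), and 1 fell, Thy1, with a change of −3.04 (adjusted p = 0.011). In Geriatric against Old cells Dpt rose by 1.05 and Cd55 by 1.07, and Thy1 fell by 2.26 (adjusted p = 0.0325, 0.0481 and 0.0157). Without Geriatric replicate 3 none of these 3 markers kept its call, and the Thy1 changes were −2.08 and −1.30. Dpt also lost both calls without Geriatric replicate 1 (adjusted p = 0.0832 and 0.0876). Its call against Young cells was lost without Young replicate 1 or 3 (adjusted p = 0.0566 and 0.0778). The Dpt call against Old cells was lost without Old replicate 1 or 2 (adjusted p = 0.0788 and 0.102). The median was 0.52 to 1.25 in SAMP8 and 0.00 to 0.98 in SAMR1, above all C57BL/6 arrays. Pdgfra, a defining marker of these cells, was not well above background on any array.

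The summed mesenchymal level, on the same log2 scale, ran from 5.80 to 6.49 in Geriatric, from 6.25 to 6.36 in Young and from 5.92 to 6.51 in Old cells. Endothelial markers had medians of −0.96 to 2.32 in SAMP8 and 0.94 to 2.38 in SAMR1, against −3.79 to −0.44 on the C57BL/6 arrays. All SAMR1 arrays lay above the C57BL/6 arrays, while SAMP8 replicate 3 (−0.96) lay below Old replicate 1 (−0.44). Among the sort antigens, Itgam, the gene of the gated-out CD11b, read 7.42 to 8.70 over all groups, while the leukocyte list had medians of −4.92 to −2.12. Pecam1, the gene of CD31, read 0.61 to 3.77 in SAMP8 and 2.39 to 3.8 in SAMR1, against −4.95 to 0.11 on the C57BL/6 arrays. Ly6a, the gene of Sca1, read −1.84 to 1.06 in SAMP8 and −1.10 to −0.06 in SAMR1, against −4.76 to −1.23 on the C57BL/6 arrays. Ptprc, the gene of CD45, read −2.34 to −1.49 over all groups.

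Among the other lists, Pdgfrb rose and Abcc9 fell in Geriatric (2.66 and −2.94) and in Old cells (2.45 and −2.70), both against Young cells. With only the groups compared each of these calls was lost (adjusted p between 0.0552 and 0.0684). The Abcc9 call in Old cells was also lost without Old replicate 1 (adjusted p = 0.0532). Pdgfrb averaged −1.70 in Geriatric cells, −1.07 in SAMP8 and −1.48 in SAMR1, and Abcc9 averaged −3.97, 0.82 and −1.04. These genes were 2 of 12 pericyte and smooth muscle markers. In Geriatric against Old cells Cnn1 of that list, Lyz2 and C1qb of 15 leukocyte markers, Krt8 of 12 epithelial markers and Myh2 and Mylpf of 11 muscle fibre markers fell, in a comparison where 14.4% of all genes fell, and the satellite cell genes Myf5 and Spry1 rose by 2.34 and 1.68. Myf5 averaged −1.81 in Geriatric cells, −2.28 in SAMP8 and −2.12 in SAMR1, and Spry1 averaged 3.37, 3.41 and 3.32. Myod1 rose by 0.90 in SAMP8 against SAMR1 (adjusted p = 0.0429). The call of Myod1 was lost on leaving out any 1 of the 14 arrays and in 21 of 28 settings in all. Those of Krt8 and Cd55 were lost in 19 of 27 settings, of Myh2 in 17, of C1qb in 14, of Lyz2 in 7 and of Mylpf in 5, in each case also without either Geriatric array. That of Cnn1 was lost without Geriatric replicate 3 or Old replicate 2, that of Spry1 without either Geriatric array and that of Myf5 without Geriatric replicate 3. Of 11 endothelial and 8 Schwann cell markers 0 passed in limma in the 4 comparisons, with lowest adjusted p-values of 0.124 and 0.0823. The part of these cells in the levels of Hgf was not tested, and fewer cells of a type and less RNA per cell cannot be told apart in sorted bulk samples.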

How the data were processed

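The 14 arrays were 1-colour Agilent arrays, and the values used were the deposited processed signal intensity of each spot from Agilent Feature Extraction 10.7.3.1, background-subtracted by that software per the file headers, with probe coordinates on mm9. The authors' table of log2 values was an alternative; it equalled a quantile-normalized normexp correction of the deposited intensities within 0.000117, with a median of 7.7951 in each column. Steps before the scan were taken per the labels' protocols.

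Outlier-flagged and control spots were left out, the spots of a probe were averaged, and log2 intensity was centred on each array's 75th percentile. Probes well above background on 2 arrays of at least 1 group were kept (49918 of 55681), and the brightest kept probe stood for its gene. A single linear model held all 5 groups (R 4.3.3, limma 3.58.1 with empirical Bayes, prior degrees of freedom 2.36, residual degrees of freedom 9), with Benjamini-Hochberg adjustment over 32863 genes and a threshold of 0.05. There were 515 missing values in the fit and 0 in the members' rows. Where a probe was not well above background on any array of a group, the fold is a lower bound: the brighter group's mean against the dim group's mean of, per array, the higher of the dim probe's signal and the lowest signal among probes well above background. The fit was tested on simulated data. The number of arrays limits the precision, and p-values measure the spread between samples that the labels call biological replicates. Every member was named, with at most 3 called genes per list and comparison, the called markers and the 5 genes most like each member; 1 gene that this rule names is not reported here. The members and lists were chosen with earlier results of these data known. Deviations from the group means correlated at −0.255 to 0.158 between same-numbered arrays. Differently numbered arrays were not set beside them, so these values cannot decide whether replicate numbers pair arrays. The arrays were treated as unpaired. Alternatives were another background correction, scaling, source of values, probe filter, probe-to-gene rule, spread model, set of groups, slide or replicate block, within-slide fits and leaving out each array.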

Additional observations from a re-analysis of the deposited data

How the results depend on the processing

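Limits first: 2 Geriatric arrays, both on slide 2, carry every Geriatric comparison, dim probes (St14, the second probes of Spint1 and Spint2) sit near background, and the normexp correction compresses their changes; the causes of the shifts below were not tested. The call for Hgf against Young cells held in 25 of 27 alternative settings and that against Old cells in 24 of 27; it was lost within slide 2 (4.72 and 2.37), for Old cells also with only the groups compared (3.13), and without Geriatric replicate 3, with leave-one-out ranges of 3.43 to 4.50 and 2.37 to 3.73. Genes called for Old against Young, then Geriatric against Young, Geriatric against Old and SAMP8 against SAMR1, numbered 472, 1377, 6561 and 149; with only the groups compared they were 43, 422, 3001 and 47, and leaving out 1 array gave 85 to 793, 414 to 1537, 1989 to 7309 and 56 to 250. The slide block gave 729 and 864 for the first 2, and the replicate block 237 and 869, with Hgf at 3.67 (adjusted p = 0.00833) and 2.83 (adjusted p = 0.00845); among the genes named, that block lost the calls of Plg (−3.18), A2m (−1.48), Dusp6 in Old cells (−1.18), Dpt (1.5 and 1.08), Krt8 (−2), C1qb (−0.95), Cd55 (1.11), Myh2 (−3.7) and Myod1 (0.9). For Old versus Young and SAMP8 versus SAMR1, normexp gave 1036 and 263 and the values tabulated by the authors gave 773 and 228. Within slide 1 limma called 0 in both (4900 and 4387 at an unadjusted p under 0.05), and within slide 2 it called 0 in both (2721 and 1619), 2 in Geriatric versus Young and 1553 in Geriatric versus Old. Members called in Geriatric versus Old were 2 with quantile normalization and in the authors' table, and 0 within slide 2, with only the groups compared and without Geriatric replicate 3 (0 to 1 over arrays left out); in Geriatric versus Young 0 within slide 2 (0 to 1 over arrays left out); in the difference of differences 1 with only the groups compared (0 to 1). Directions turned, none past the threshold, as follows. Hgf in Old versus Young was −1.05 within slide 1. Hgfac in SAMP8 versus SAMR1 was 0.07 with normexp, 0.04 in the authors' table, 0.17 with the slide block, 0.10 and 0.12 within slides 1 and 2, and −0.14 to 0.17 leaving out arrays. Hgfac in Geriatric versus Young was 0.03 with median scaling, 0.31 with the slide block, 0.83 within slide 2 and −0.79 to 0.71 leaving out arrays; against Old −0.16 to 1.34; in Old versus Young 0.21 within slide 2. St14 was −0.01 in Old versus Young in the authors' table (−0.01 to 1.58 leaving out arrays) and 1.05 in SAMP8 versus SAMR1 within slide 1. Spint1 was −0.09 in Old versus Young with median scaling (−0.23 to 0.31 leaving out arrays), 0.24 and 0.35 in Geriatric versus Young with the slide block and within slide 2 (−0.88 to 0.20), −1 to 0.08 in Geriatric versus Old, and 0.22 in SAMP8 versus SAMR1 within slide 1 (−0.66 to 0.02). Spint2 in Geriatric versus Young was 0.04 with median scaling, 0.21 with the mean of probes, 0.10 with the slide block, 0.03 within slide 2 and −0.07 to 0.01 leaving out arrays; the mean of probes gave 0.39 in Old versus Young and −0.18 in Geriatric versus Old. Met in Geriatric versus Young ran from −0.67 to 0.01.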
